A study of Drosophila melanogaster with 3 samples.

Results

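Among the 3036 SMARCAD1 peaks that Drosophila S2 cells had on the arms 2L, 2R, 3L, 3R and X, 404 (13.3%, 95% Wilson interval 12.1 to 14.6) covered the end of at least 1 gene and the start of none. These end-only peaks were taken from the annotation of the deposited peak table: each had at least 1 entry in which the peak overlapped the end of a gene, and no entry in which it overlapped the start of a gene or contained a whole gene. They covered the ends of 640 genes, each gene by 1 peak. By the same rule the CBP table, used as the reference, gave 176 end-only peaks of 3646 (4.83%, 4.18 to 5.57), which covered the ends of 242 genes. No start of any gene listed in either table lay inside an end-only peak of either antibody. The tables give 1 start per gene, so alternative starts were not analysed.

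S2 is an embryo-derived cell line of Drosophila melanogaster. Its chromatin was immunoprecipitated with custom-made antibodies to SMARCAD1 (ASNA) or to CBP, with 1 library per antibody and 1 input DNA library, of which no table was used here. All the cells had received dsRNA of EGFP, the nonspecific control, for 6 h at 26 °C without serum, followed by 72 h with serum. Nuclei were digested with MNase before immunoprecipitation. With 1 library per antibody there was no replicate, so no test between conditions was possible. Intervals are 95% intervals for counting error in these 2 libraries, and they treat peaks as independent of each other. The tables hold no read counts or scores, so the depth is unknown and peaks could not be ranked by strength. Coordinates are given as in the tables. The sources name dm6, but the tables use chromosome names from before Release 6, and gene edges match those of Release 6 for some genes of 2L and 3L and for none of the matched genes of 2R, 3R and X.

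SMARCAD1 belongs to a family of Snf2-type ATPases that move or exchange nucleosomes. CBP, encoded by nejire in flies, is a coactivator that acetylates histones and is best known at promoters and enhancers. At the end of a gene the nascent transcript is cleaved and polyadenylated and RNA polymerase II is released. Where neighbouring genes run towards each other, their ends lie close together, and both may fall under a single peak.

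The end-only peaks were 714 to 7479 bp wide, with a median of 1678 bp (1533 to 1875). SMARCAD1 peaks that covered starts and no ends, 874 in number, had a median of 1736 bp. The median of the CBP end-only peaks was 1515 bp. For 276 of the 404 SMARCAD1 peaks (68.3%) the table listed nothing but gene ends, while 51 also lay inside another gene, 58 also lay upstream of one and 20 downstream of one. The nearest listed start was a median of 1184 bp from the edge of the peak (1050 to 1323), and 59 peaks (14.6%) had one within 500 bp. In 314 peaks (77.7%) the nearest start belonged to an ended gene. Another end-only peak lay within 10000 bp of 80 peaks (19.8%).

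Peaks were centred near the end and on its outer side. Over the 640 ended genes the centre of the peak lay a median of 194 bp past the end (164 to 237), and it lay past the end in 445 genes (69.5%). The centre was within 500 bp of the end in 432 genes (67.5%). Peaks reached a median of 559 bp into the gene and 962 bp beyond it. At 500 bp inside the gene 55.6% of the genes were still under their peak, against 81.2% at 500 bp past the end. The rule takes part in this asymmetry, since a peak that reached the start of its gene would have been left out. A peak over several ends was counted once per gene, so the intervals treat linked values as independent. Where a peak covered ends of both strands, past the end of a gene lies towards or inside the other gene. The median offset was 154 bp (101 to 194) under such peaks and 338 bp (246 to 466) under peaks over ends of 1 strand. Genes of at least 5000 bp leave more room for the peak, and in them the median offset was 124 bp past the end (29.5 to 236). For the CBP reference the offset was 255 bp (197 to 310) over all ended genes and 170 bp (-43 to 301) over genes of at least 5000 bp.

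**Figure D1:**
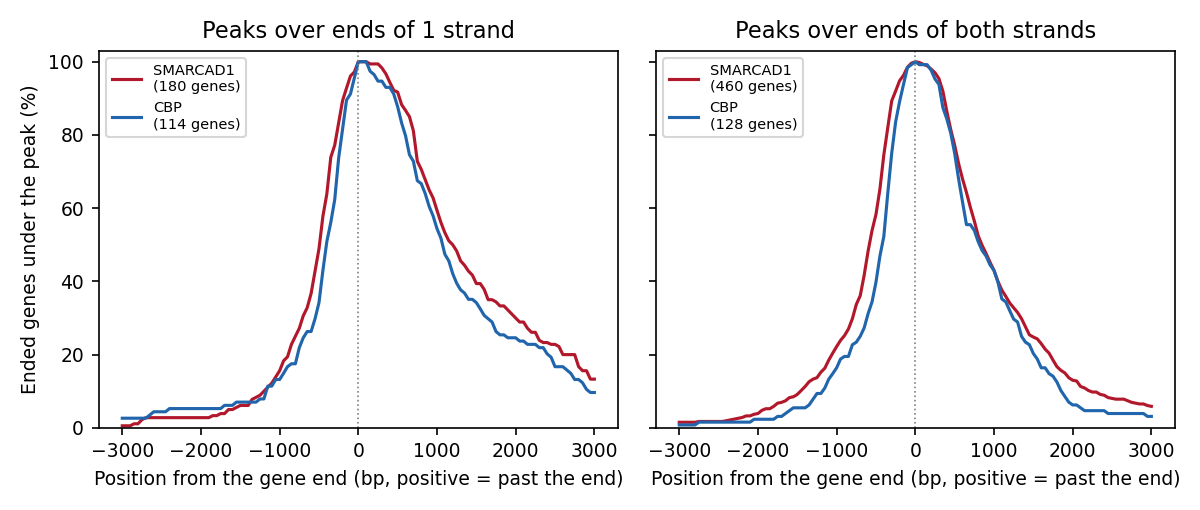
Share of ended genes (percent, vertical axis) that lie under their end-only peak, against the position from the gene end in bp (horizontal axis, positive values past the end), for peaks over ends of 1 strand and of both strands and for both antibodies (lines). Coverage falls off more slowly past the end than inside the gene: at 500 bp the SMARCAD1 line for 1 strand is at 91.7% outside and 48.9% inside.

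In most cases the ends under a peak came from both strands. Of the 404 SMARCAD1 peaks, 176 covered 1 end, 220 covered 2 and 8 covered 3. In 5 of these 8, 2 of the genes were listed with the same end. Ends of both strands were covered by 226 peaks (55.9%, 51.1 to 60.7), against 64 of the 176 CBP end-only peaks (36.4%, 29.6 to 43.7), a difference of 19.6 percentage points (10.8 to 27.8). For comparison, starts of both strands were covered by 63.2% of the SMARCAD1 start-only peaks and 62.2% of those of CBP. The end-only share minus the start-only share was -7.22 points for SMARCAD1 (-13.0 to -1.45) and -25.9 points for CBP (-33.1 to -18.1). The ended genes were evenly spread over the strands, with 327 on the plus strand and 313 on the minus strand. For the 499 ended genes whose downstream neighbour was also listed, which is the only case in which its strand was known, the neighbour ran towards the gene in 455 (91.2%, 88.4 to 93.4). The share was 60.8% over all listed genes with a listed neighbour, and 64.8% over the genes of SMARCAD1 start-only peaks. Because a peak over a pair of ends lists both genes, the 91.2% partly follows from the rule, and the CBP value of 87.4% (132 of 151) was formed in the same way.

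In 218 peaks exactly 1 gene from each strand was ended. The ends of these converging pairs lay a median of 132 bp apart (89 to 225), and the genes of 66 pairs (30.3%, 24.6 to 36.7) overlapped at their ends, by a median of 67 bp. In 186 pairs (85.3%) the ends overlapped or were less than 1000 bp apart, and the centre of the peak lay within 250 bp of the midpoint between the ends in 127 pairs (58.3%). A pair was counted only where a single peak covered both ends, so the gap could not exceed the width of the peak. These distances therefore largely follow from the selection, and gaps of converging genes in general were not measured. The 64 CBP pairs were a median of 298 bp apart (169 to 489), and 13 of them (20.3%) overlapped. Peaks over both strands were narrower than peaks over 1 strand, with medians of 1516 bp (1350 to 1701) and 1954 bp (1718 to 2077).

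**Figure D2:**
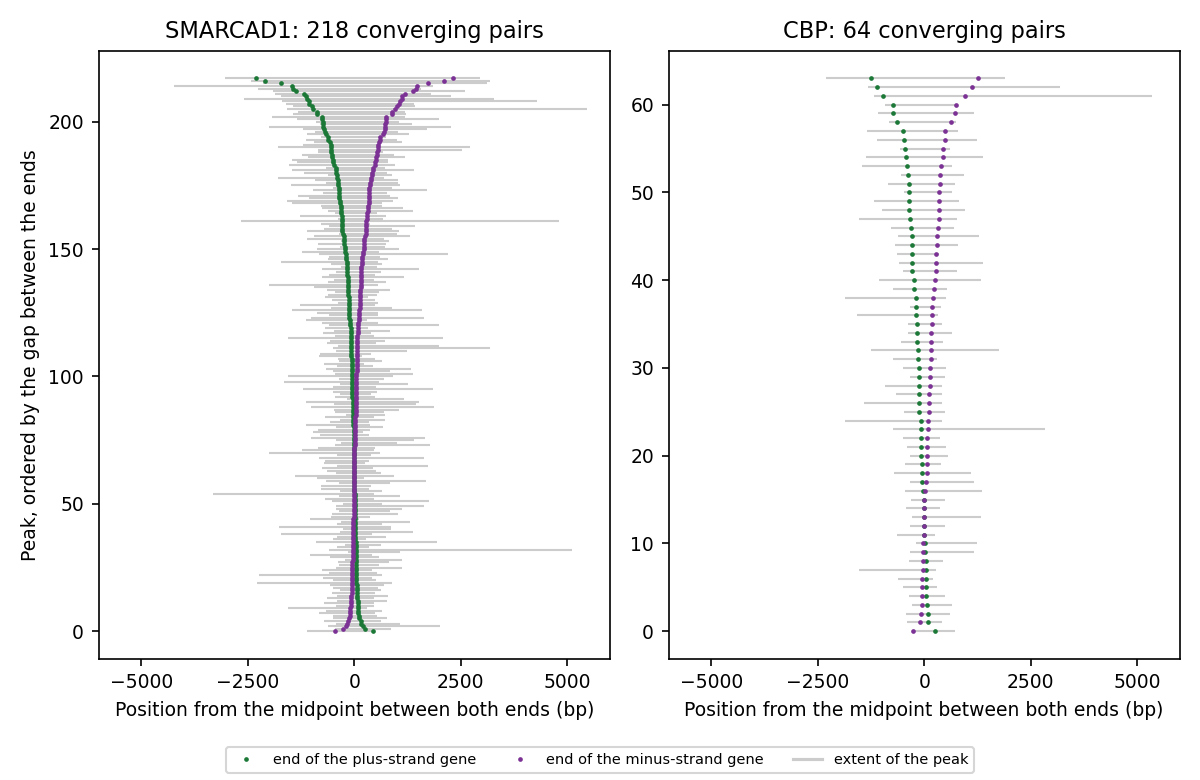
Peaks covering 1 end from each strand (218 for SMARCAD1, 64 for CBP), each row a peak, ordered by the gap between the ends; the horizontal axis gives the position in bp from the midpoint between the ends, grey lines the extent of the peak and dots the gene ends. The dots cross at the bottom, where the genes of 66 SMARCAD1 and 13 CBP pairs overlap, and the grey lines extend past both dots.

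The following 5 pairs were chosen after their values were seen, for the known roles of their genes. The peak at chr2L:13168387-13171445 (3059 bp) covered the ends of both Sir2, an NAD-dependent histone deacetylase, and Sfmbt, a Polycomb-group protein, which lie 91 bp apart. The peak at chrX:7619531-7620476 covered the ends of NELF-B, a subunit of the factor that holds paused polymerase, and Hira, the chaperone of histone H3.3, 84 bp apart. At chrX:11456448-11457652 the largest subunit of RNA polymerase II, RpII215, and the peptidoglycan receptor PGRP-SA overlapped by 8 bp at their ends. The peak over XNP, the fly ATRX, also covered the end of the Mediator subunit gene MED28, 122 bp away. The ends of BEAF-32, an insulator protein, and kn, a transcription factor of blood cells and neurons, were 16 bp apart. None of these 5 peaks overlapped a CBP peak, beside 17.3% of all peaks over both strands, which is uninformative for so few peaks.

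Of the 5 widest peaks, that at the ends of cul-2, a ubiquitin-ligase cullin, and CG2225 was 7479 bp wide and that at CG14882 and the kinase gene Pak3 7026 bp. The peak past the end of dm, the fly Myc, was 6928 bp wide (chrX:3279199-3286126). It entered the gene by 850 bp and reached 6077 bp beyond it. The peaks at Cyp310a1 and at grp (the fly Chk1), the latter covering 3 ends, were 6776 and 6389 bp wide. Among the 5 narrowest, CG42269 had 714 bp, the pair b and tam (the mitochondrial DNA polymerase) 743 bp, the 3 ends of Cctgamma, a chaperonin subunit, CG14906 and CG14907 753 bp, the pair yemalpha, which encodes a partner of Hira, and CG11877 762 bp, and the pair Hmu and CG3348 776 bp. Of the other peaks over 3 ends, the 3 described here are those at Acer with lmg and CG34441 (2628 bp wide), at CG12016 and CG42456 with CG11526 (1593 bp) and at CG14646 with CG34112 and CR41470 (2551 bp). lmg and CG34441 are listed with the same end, as are CG12016 and CG42456, and CG14906 and CG14907.

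Whether the gene that carried an end peak also had a peak at its start was determined from both tables. Of the 640 ended genes, 233 (36.4%, 32.8 to 40.2) had a SMARCAD1 peak over the start and 318 (49.7%, 45.8 to 53.6) a CBP peak, 13.3 points apart over the same genes. When peaks within 1000 bp of the start were counted, both shares were 56.4%. That count can include the end peak itself, and 176 of the 404 peaks had a listed start within 1000 bp. The end peak is a SMARCAD1 peak, so it can raise the SMARCAD1 share more than the CBP share. The equal shares therefore do not show whether the difference holds. Both antibodies had a peak at 186 starts (29.1%), SMARCAD1 alone at 47 (7.34%), CBP alone at 132 (20.6%) and neither at 275 (43.0%, 39.2 to 46.8). Over all genes listed in either table, 46.3% had a SMARCAD1 peak over the start and 60.5% a CBP peak. That background is high by construction, because only genes near a peak are listed. Over all protein-coding genes of the RefSeq list on these arms, listed or not, the shares were 18.2% and 24.5%. The ended genes fell between these backgrounds for both antibodies. The rule left out SMARCAD1 peaks that cover a start, so a SMARCAD1 start peak of an ended gene had to be a separate peak. CBP start peaks had no such limit. The SMARCAD1 share, and its distance from the CBP share and from the listed genes, therefore partly follow from the rule. The genes ended by CBP end-only peaks had a SMARCAD1 start peak in 36.4% and a CBP start peak in 56.6%.

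**Figure D3:**
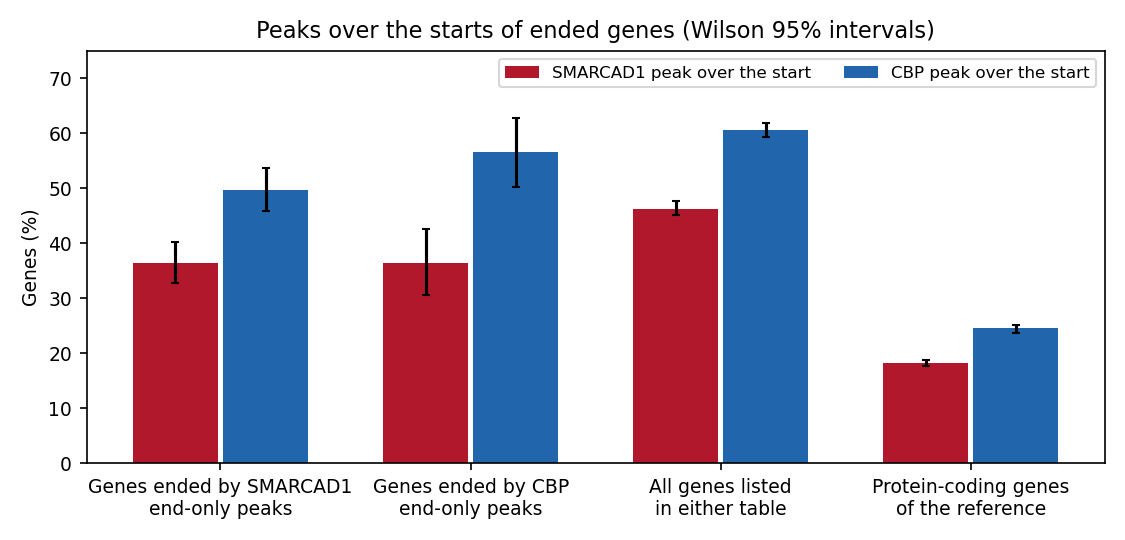
Share of genes (percent, bars with Wilson 95% intervals) with a SMARCAD1 or a CBP peak over the start, for genes ended by end-only peaks of each antibody, for all genes listed in either table and for all protein-coding reference genes on the arms. Genes ended by SMARCAD1 end-only peaks stand at 36.4% and 49.7%, below the listed genes (46.3% and 60.5%) and above the reference genes (18.2% and 24.5%).

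In ended genes under 2000 bp, 2000 to 5000 bp and 5000 bp or more, a CBP start peak was found in 38.5%, 57.0% and 54.0%, and a SMARCAD1 start peak in 35.8%, 38.6% and 33.7%. The CBP share was lowest in the shortest genes (interval 32.4 to 45.0), while the SMARCAD1 shares differed by less than their intervals. The ended genes had a median length of 2800 bp (2580 to 3028), against 2043 bp (1891 to 2295) for the CBP reference, 2763 bp for genes of SMARCAD1 start-only peaks and 2470 bp for all listed genes. A gene that lies wholly inside a peak was left out by the rule, which sets the lower lengths in part. Among the 218 pairs, both starts had a peak of either antibody in 72, 1 of the starts in 100 and neither in 46. Where both peaks existed, the gap between the end peak and the start peak of the gene had a median of 1376 bp (SMARCAD1 at the start) or 1624 bp (CBP at the start).

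In long genes the end and the start lie far apart. The end peak of pum, a translational repressor of 167939 bp, lay at chr3R:4891613-4896859, and no peak of either antibody lay over its start. The guanine exchange factor gene spri (94959 bp), the homeobox gene ct (66876 bp), CG32666 (61877 bp), which encodes the kinase Drak, and ftz-f1 (46818 bp), a nuclear receptor, also had an end peak and no start peak. In contrast, the starts of Ptp10D (55311 bp), a receptor tyrosine phosphatase, Gprk2 (52529 bp), a G-protein-coupled receptor kinase, CG5004 (27485 bp), Moe (24708 bp), the membrane-actin linker Moesin, and CG31324 (23321 bp) carried peaks of both antibodies. These 10 genes are the 5 longest of each kind.

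SMARCAD1 end-only peaks overlapped CBP less often than other SMARCAD1 peaks did. Overlap with a CBP peak by at least 1 bp was seen for 114 of the 404 (28.2%, 24.1 to 32.8), against 60.8% of all SMARCAD1 peaks on the arms and 76.0% of the start-only peaks. The end-only share minus the start-only share was -47.8 points (-52.7 to -42.3). The rule leaves out SMARCAD1 peaks over a start, while CBP had 1446 start-only peaks and 176 end-only peaks. This difference may therefore partly follow from the rule. SMARCAD1 peaks off both starts and ends were not compared. In 90 of the 114 the overlapping CBP peak was itself end-only. Of the CBP end-only peaks, 111 of 176 (63.1%, 55.7 to 69.8) overlapped a SMARCAD1 peak, against 53.3% of the CBP start-only peaks. Thus 124 genes were ended by end-only peaks of both antibodies, 19.4% of the SMARCAD1-ended genes and 51.2% of the CBP-ended genes. Both shares count the same 124 genes, over 640 and 242, so their difference follows from the sizes of the sets. The 10 longest of these genes were spri, CG32666, Gprk2, B4, CG33232 (the fly supervillin), ush, the FOG-type cofactor of GATA factors, Rala, a small GTPase, Mctp, ImpL2, a secreted insulin-binding protein, and Drep-2. At spri the SMARCAD1 peak was 2042 bp wide and the CBP peak 931 bp, with centres 194 bp past the end and 12 bp inside it. At ush the peaks were 2106 and 1930 bp wide, with centres 328 and 330 bp past the end, so they nearly coincided. At Rala the SMARCAD1 peak (5595 bp) also covered the end of Mnt, which encodes a partner of Max, and the CBP peak (1564 bp) did not.

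The overlap differed between peaks over 1 strand and over both. Peaks over ends of 1 strand overlapped CBP in 75 of 178 cases (42.1%, 35.1 to 49.5), and peaks over both strands in 39 of 226 (17.3%, 12.9 to 22.7), 24.9 points apart and with intervals that do not overlap. Width differs between these kinds, and the overlap was higher in wider peaks over 1 strand. Among peaks under 1500 bp the shares were 28.1% (18 of 64) and 15.5% (17 of 110), with overlapping intervals (18.6 to 40.1 and 9.88 to 23.4). Among wider peaks they were 50% (57 of 114, 41.0 to 59.0) and 19.0% (22 of 116, 12.9 to 27.0). For peaks over both strands the intervals of the 2 widths overlap. The order was the same on X (36.7% and 12.7%) and on the autosomal arms (46.5% and 19.4%), and in peaks over 500 bp from any listed start (41.3% and 16.4%). In the CBP table the shares were 59.8% for 1 strand and 68.8% for both, with an interval of the difference that includes 0 (-8.93 points, -22.6 to 5.96). On 2R 23 of 46 end-only peaks overlapped CBP (50%, 36.1 to 63.9), while the other arms together had 25.4%. The start of an ended gene had a CBP peak in 51.3% where the end peak overlapped CBP and in 49.2% where it did not, a difference of 2.12 points (-6.88 to 11.1).

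**Figure D4:**
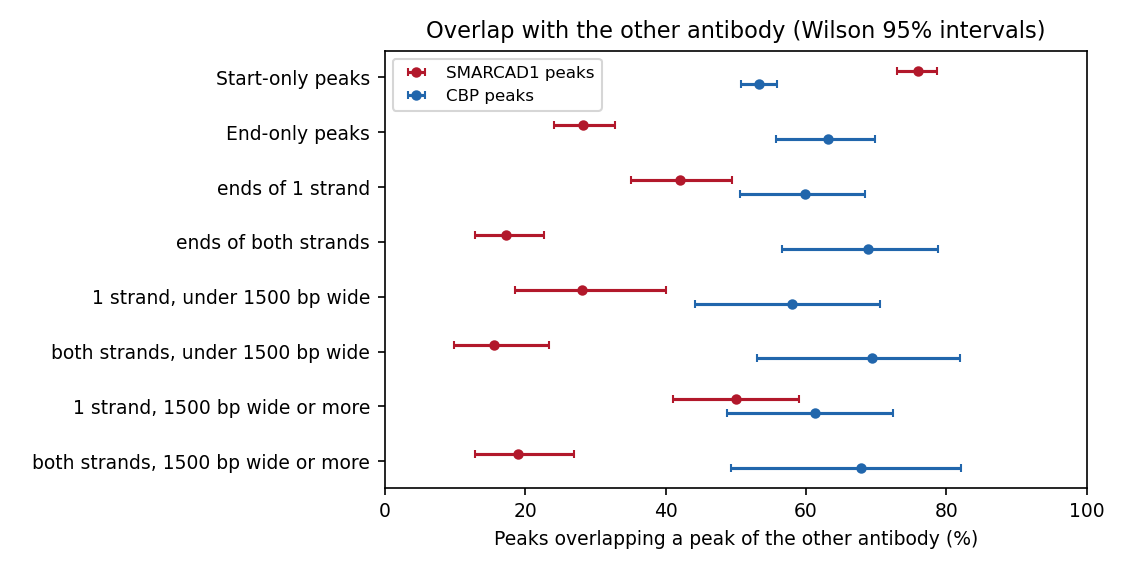
Share of peaks that overlap a peak of the other antibody (percent, horizontal axis, points with Wilson 95% intervals) for start-only and end-only peaks and for end-only peaks by the strands ended and by width. SMARCAD1 end-only peaks lie at 28.2%, those of both strands at 17.3%, far to the left of the start-only peaks at 76.0%, whereas the CBP values lie between 53.3% and 69.4%.

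End-only peaks were frequent on X. X held 150 of the 404 (37.1%, 32.6 to 41.9), against 25.4% of all SMARCAD1 peaks on the arms and 21.9% of the start-only peaks, and 13.5 points more than the share among the other SMARCAD1 peaks (8.63 to 18.6). On X 19.4% of the SMARCAD1 peaks were end-only, against 12.1% on 2L, 8.60% on 2R, 12.2% on 3L and 11.9% on 3R. For the CBP reference, X held 22.2% of the end-only peaks (16.7 to 28.9) and 19.1% of the others (difference 3.08 points, -2.58 to 9.89). X-linked SMARCAD1 end-only peaks were less often over both strands (47.3% against 61.0% on the autosomal arms, 13.7 points lower, 3.65 to 23.4). Their median width was 1516 bp against 1828 bp and the median length of their genes 3217 bp against 2630 bp, in both cases with overlapping intervals. Their genes had a SMARCAD1 start peak more often, in 43.6% against 32.5% (11.0 points, 3.18 to 18.9), while the CBP start peaks differed by 3.57 points (-4.52 to 11.6).

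**Figure D5:**
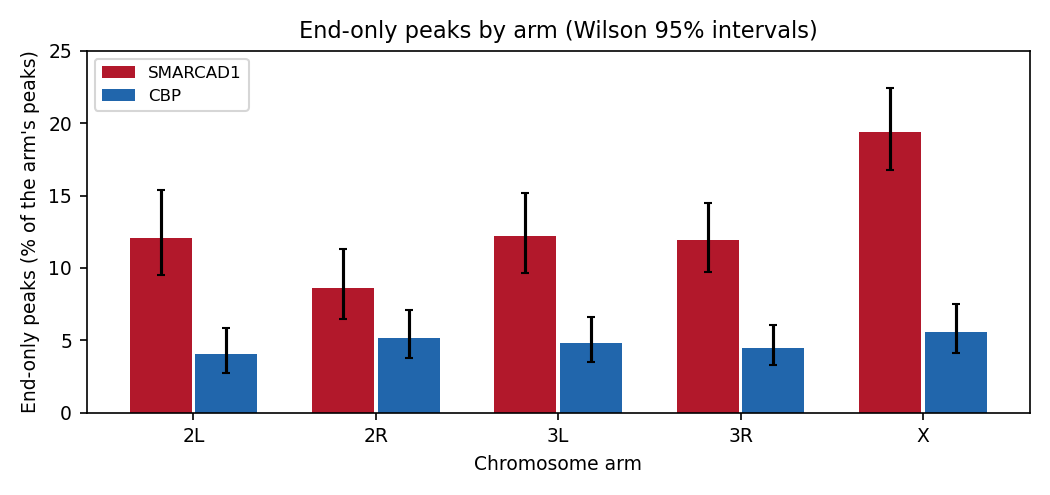
End-only peaks as a percentage of each arm's peaks (bars with Wilson 95% intervals) for SMARCAD1 and CBP, by chromosome arm. The SMARCAD1 bar for X is at 19.4%, above 8.60 to 12.2% on the other arms, and the CBP bars lie between 4.04% and 5.56%.

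Of the 640 ended genes, 635 matched the RefSeq list by name and 631 were protein-coding, which is 4.56% of the 13831 protein-coding genes on these arms. The gene lists were set beside that share, without a test. Only genes near a peak can be ended, so a list with many genes near peaks can exceed 4.56% for that reason alone. Among 85 cytosolic ribosomal protein genes 13 were ended (15.3%), and 8 genes of the list (9.41%) were ended by CBP end-only peaks, which ended 1.73% of all the protein-coding genes. Of the 13, 8 were on X, beside 225 of all 640 ended genes, and the share of the whole list on X was not determined. Among genes listed in either peak table alone, 13 of 71 genes of this list were ended, beside 631 of 5559 protein-coding genes. The 13 genes were RpL5, RpL7, RpL17, RpL22, RpL27, RpL32, RpL35, RpL36, RpS10b, RpS15Aa, RpS15Ab, RpS19a and RpS28b. The peak at RpL36 entered the gene by 10 bp only, so it would not count as ended with a slightly shorter gene model, whereas that at RpS28b covered 66.3% of the gene. In 10 of the 13 the start carried a CBP peak and in 5 a SMARCAD1 peak, where over the whole list these shares were 74.1% (63 of 85) and 38.8% (33 of 85). For example, RpL32 (chr3R:25870369-25871294) had its end peak together with Sry-delta and a CBP peak alone at its start, and RpL35 had its end peak with Tre1 and peaks of both antibodies at its start. RpS15Aa and RpS15Ab are similar copies, so reads at these genes may be placed wrongly. Of 21 genes of histone acetyltransferases and deacetylases 5 were ended (23.8%), and 0 by CBP end-only peaks, a count that the CBP background of 1.73% leaves uninformative in so short a list: Sir2, HDAC4, a class IIa deacetylase, Pcaf, the Gcn5 acetyltransferase of SAGA, Ada2b, its adaptor subunit, and CG8481. The last encodes Naa80, an acetyltransferase of actin rather than of histones. All 5 had a CBP peak over the start and 4 had a SMARCAD1 peak there, against 10 and 8 of the 21 genes of the list. The end peaks of 0 of the 5 overlapped CBP, beside 28.2% of all end-only peaks. Of the 5, 4 lay under peaks over both strands, of which 17.3% overlapped CBP, so this count of 0 is uninformative.

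Cleavage and polyadenylation factors were ended in 3 of 19 genes (15.8%): CG1109, which encodes the poly(A)-signal-binding WDR33 homologue, CG3689, the fly CPSF5 (CFIm25), and Sym, the scaffold protein symplekin. The peak at Sym covered a pair overlapping by 97 bp. Remodellers were ended in 3 of 33 genes (9.09%): kis (40064 bp), the fly CHD7, XNP and Hel89B, the fly Mot1. Of 17 insulator protein genes, BEAF-32 and su(Hw) were ended (11.8%). Of 30 genes of the RNA polymerase II machinery, NELF-B and RpII215 were ended (6.67%). Of 8 dosage compensation genes 1 was ended, msl-1, the scaffold of the MSL complex, whose end lies 2 bp from that of CG31751. In cell cycle genes, 4 of 33 (12.1%) were ended: fzy, the Cdc20 activator of the anaphase-promoting complex, CycB, Rbf and geminin. The fzy peak, 5704 bp wide, was shared with cact, the fly IκB, with which fzy overlaps by 69 bp. Of 28 heat-shock and chaperone genes 3 were ended (10.7%), Hsc70-3, Hsc70-4 and Hsp70Aa, which has near-identical copies, and CBP end-only peaks ended 7 (25%). Of 29 genes of the actin and Rac list SMARCAD1 end-only peaks ended 2 (6.90%), Rac1 and Moe, and those of CBP 4 (13.8%). Among 9 histone genes SMARCAD1 end-only peaks ended 1 (11.1%), His3.3A, and those of CBP 2 (22.2%). At or below the share over all protein-coding genes were the Polycomb and Trithorax groups with 1 of 28 (3.57%, Sfmbt), translation factors with 1 of 30 (3.33%, the initiation factor eIF-2alpha) and blood cell genes with 1 of 22 (4.55%, ush). Among listed genes alone, beside 631 of 5559, acetyltransferases and deacetylases had 5 of 13, cleavage factors 3 of 11 and insulators 2 of 10. Remodellers had 3 of 19, cell cycle genes 4 of 23, histones 1 of 6 and dosage compensation 1 of 7. Heat shock had 3 of 25, polymerase machinery 2 of 19, blood cell genes 1 of 11 and actin and Rac 2 of 24. Polycomb and Trithorax had 1 of 19 and translation factors 1 of 21. CBP end-only peaks ended 2 remodeller genes (6.06%), 3 cell cycle genes (9.09%), 2 blood cell genes (9.09%) and 1 Polycomb or Trithorax gene (3.57%). Over all protein-coding genes their share was 1.73%. They ended 0 genes of the lists for insulators, dosage compensation, polymerase machinery, cleavage factors and translation factors. Beside 1.73%, these counts of 0 are uninformative in such short lists. The genes named in the study for S2 cells, 9 on these arms, were ended in 0 cases, which is uninformative in so short a list beside 4.56% of all protein-coding genes. Over all lists 42 genes were ended, 36 of them under peaks over both strands and 13 under peaks that overlapped CBP. Of all 640 ended genes these were 460 and 154. The starts of the 42 had a SMARCAD1 peak in 21, a CBP peak in 29 and neither in 10, beside 233, 318 and 275 of the 640.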

How the data were processed

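The deposited tables list peak positions, widths and distances to gene starts in bp. The authors mapped reads with BWA, called peaks per library against a control with MACS and annotated them with ChIPpeakAnno. Samples were grouped by their labels. The tables have 5859 (SMARCAD1) and 6495 (CBP) entries. Classes, overlaps (at least 1 bp), Wilson intervals for shares, Newcombe intervals for differences and binomial intervals for medians were computed (scipy 1.17.1, pandas 2.3.3, numpy 2.4.6, Python 3.11.15) and checked on simulated peaks. Gene names, kinds and the gene order behind the converging neighbours came from a RefSeq table of Release 6. Its coordinates served to order the genes, to set nested genes aside and to compare gene edges, and were not set against peak positions. An edge was shared by 0 of 942 name-matched X genes, 0 of 1479 on 3R and 0 of 1204 on 2R. On 2L it was shared by 457 of 1110 and on 3L by 159 of 1158. The RefSeq table holds no strands, so strands came from the peak tables. The members and 15 lists were chosen with earlier results of these data known. Named genes are ended genes of the lists, the 5 widest and 5 narrowest peaks, up to 5 peaks over most ends, the 5 longest ended genes with start peaks of both antibodies and with none, and up to 10 ended by both antibodies. Pairs named for their roles and partner genes were chosen after their values were seen. Alternatives concerned widths, overlap, starts, arms, gene order and gene length. Peaks on other chromosomes (175 SMARCAD1, 116 CBP) were left out.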

Additional observations from a re-analysis of the deposited data

How the results depend on the processing

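Of 102 values recomputed under alternatives, 67 stayed within the interval of the main value, and 35 moved outside it; the cause was not tested. Without peaks within 500 bp of a listed start, end-only shares were 11.4% for SMARCAD1 and 3.78% for CBP, and with only the entry of the nearest start 10.3% and 3.78%. On the autosomal arms the SMARCAD1 values were 11.2% end-only, 61.0% over both strands and 32.5% with a SMARCAD1 start peak. On X alone they were 19.4%, 47.3% and 43.6%, with a width of 1516 bp, an offset of 262 bp, a gene length of 3217 bp and 87.3% converging neighbours. For CBP on X they were 79.5% overlapping SMARCAD1, 28.2% over both strands, a width of 1164 bp, a gene length of 2489 bp, 46% with a CBP start peak and 75.9% converging. Overlap with the other antibody was 23.8% and 55.7% (SMARCAD1, CBP) where at least 50% of both peaks had to overlap, 19.8% and 43.8% for centres within 200 bp, and 20.1% for SMARCAD1 peaks under 1500 bp wide. In genes of at least 5000 bp the offsets were 124 and 170 bp. Counting peaks within 500 bp of a start, the share with a SMARCAD1 start peak was 42.8% for SMARCAD1, and that with a CBP start peak 64.9% for CBP. Within 1000 bp they were 56.4% and 76.0%, the CBP start share of SMARCAD1-ended genes was 56.4% and the SMARCAD1 start share of CBP-ended genes 52.9%. For SMARCAD1-ended genes the window of 1000 bp can reach the SMARCAD1 end peak. The equal shares of 56.4% thus do not show whether the main difference between their SMARCAD1 and CBP start shares holds. On X the CBP start share of SMARCAD1-ended genes, 52%, was above the 46% of CBP-ended genes, the reverse of 49.7% and 56.6% over all arms, with overlapping intervals, and peaks over both strands were no longer the majority. At short genes the windows around starts can reach the end peak itself, which then counts towards the start share of its own antibody. With nested genes kept in the gene order, converging shares were 86.5% and 80.1%. The settings of gene length and of widths under 1500 bp were chosen after seeing the data. Values for peaks under 3000 bp wide and for protein-coding genes alone stayed within the intervals. A stricter score was not run, as the tables hold none. No paired analysis was possible because there was 1 library per antibody.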

Other observations

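Off the 5 arms, 2 of 175 SMARCAD1 peaks and 0 of 116 CBP peaks were end-only, the former on 2RHet and on 4; a count of 0 allows up to 3 peaks.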
